A study of Homo sapiens with 6 samples.

Results

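The 14-3-3 proteins are a family of 7 human genes, YWHAB, YWHAE, YWHAG, YWHAH, YWHAQ, YWHAZ and SFN, and their mRNA was measured in SK-N-BE(2) neuroblastoma cells with and without knockdown of the splicing factor Prp19. All 7 genes were taken by name from the 58302 genes in the files. Levels are in FPKM (fragments per kilobase of exon, on a scale common to the libraries), and 6 of the genes reached a mean of 1 FPKM over the 6 samples. The family was selected on the FPKM values of YWHAZ, which were lower with siPrp19 than with siNC, so the siPrp19 and siNC values of YWHAZ are given as a description with no test. The other members were selected for being paralogs of YWHAZ and not for their own values.

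The cells were transfected with a control small interfering RNA (siNC, 3 samples) or with an siRNA against PRPF19, the gene of Prp19 (siPrp19, 3 samples), and replicates 1, 2 and 3 of each group carried the same numbers in the labels. SK-N-BE(2) is an established human neuroblastoma line with amplified MYCN, and all 6 samples came from this 1 line. The knockdown is transient. The labels place RNA collection at 72 h after transfection and the study's methods at 48 h. PRPF19 was at 53.1, 53.1 and 64.9 FPKM in siNC replicates 1 to 3 and at 21.8, 28.5 and 33.6 FPKM in the siPrp19 replicates, a mean of 49.0% of siNC. Between 16919069 and 21807712 reads per sample could be recovered from the FPKM values. Of 9 adrenergic neuroblastoma markers, 9 reached a mean of 1 FPKM, and their summed level was 2102 to 2225 FPKM with siNC and 1970 to 2559 FPKM with siPrp19. Of 5 fibroblast markers 4 did so, led by LUM with a mean of 49.9 FPKM, and their sum was 98.9 to 118.5 FPKM with siNC and 91.5 to 117.1 FPKM with siPrp19. None of the 5 leukocyte markers reached 1 FPKM, and CD3E was listed at 0 throughout.

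14-3-3 proteins are small acidic adaptors that form dimers and clasp partner proteins at phosphorylated serine or threonine residues. In the Hippo pathway the LATS kinases phosphorylate YAP, 14-3-3 proteins bind the phosphorylated form, and YAP is held in the cytoplasm away from the TEAD factors in the nucleus. The same family binds RAF kinases, CDC25 phosphatases, BAD and FOXO factors, and it is abundant in nerve tissue, where it was first studied as an activator of the enzymes of monoamine synthesis. The genes encode the isoforms beta (YWHAB), epsilon (YWHAE), gamma (YWHAG), eta (YWHAH), theta (YWHAQ), zeta (YWHAZ) and sigma (SFN). Epsilon forms mainly mixed dimers with other isoforms, and sigma mainly pairs with itself.

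The promoters of YWHAH, YWHAQ and YWHAB are shown because these genes were all highest in replicate 3 of both groups, and that of YWHAE because it varied least. Each is the 250 bases before the start of the gene in RefSeq on GRCh38.p14, read 5′ to 3′ on the strand of the gene, and capitals mark a match to the letters of a CRE, an E-box, a TEAD site or a CCAAT box.
YWHAH, chr22:31944285-31944534, plus strand: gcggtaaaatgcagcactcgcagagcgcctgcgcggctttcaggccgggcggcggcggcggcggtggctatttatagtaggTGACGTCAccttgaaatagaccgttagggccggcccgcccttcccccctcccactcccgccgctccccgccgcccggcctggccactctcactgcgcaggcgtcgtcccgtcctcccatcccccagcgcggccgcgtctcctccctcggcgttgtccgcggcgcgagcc
YWHAQ, chr2:9630998-9631247, minus strand: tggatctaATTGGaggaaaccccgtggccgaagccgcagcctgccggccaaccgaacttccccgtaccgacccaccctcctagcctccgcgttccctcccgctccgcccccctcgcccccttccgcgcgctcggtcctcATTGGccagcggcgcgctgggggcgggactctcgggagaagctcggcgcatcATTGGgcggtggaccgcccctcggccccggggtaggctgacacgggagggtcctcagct
YWHAB, chr20:44885455-44885704, plus strand: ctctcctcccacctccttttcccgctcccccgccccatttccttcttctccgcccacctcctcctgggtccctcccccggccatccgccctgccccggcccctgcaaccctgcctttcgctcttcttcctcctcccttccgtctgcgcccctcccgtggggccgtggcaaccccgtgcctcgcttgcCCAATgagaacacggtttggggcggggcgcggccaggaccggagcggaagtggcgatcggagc
YWHAE, chr17:1400223-1400472, minus strand: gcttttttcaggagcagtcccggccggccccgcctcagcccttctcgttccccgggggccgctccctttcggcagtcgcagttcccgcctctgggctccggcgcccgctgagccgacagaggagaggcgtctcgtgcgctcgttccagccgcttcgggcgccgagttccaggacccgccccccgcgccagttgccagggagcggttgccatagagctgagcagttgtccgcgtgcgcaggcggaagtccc

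The motifs were searched on both strands in the 35116 promoters of the table, of which 6 belonged to the family. YWHAZ had no promoter there, so the 6 are those of SFN and the other YWHA genes. The YWHAH promoter held 1 full CRE (TGACGTCA, the site of the CREB factors) from 169 to 162 bases before the start, a motif held by 1.65% of all promoters. The YWHAQ promoter held 3 CCAAT boxes (CCAAT, the site of the NF-Y factor), all on the opposite strand, beginning 242, 111 and 59 bases before the start. The YWHAB promoter held 1 CCAAT box from 63 to 59 bases before the start, and 32.0% of all promoters held at least 1. The E-box (CACGTG, the site of MYC and MYCN with MAX) and the TEAD site (GGAATG) were found in 0 of the 6 family promoters, against 6.34% and 11.9% of all promoters. The GC box (GGGCGG, the site of SP1) was found in 6 of 6 family promoters, between 1 copy in YWHAE and SFN and 4 copies in YWHAB, YWHAG and YWHAQ, and in 42.6% of all promoters. The 6 windows were 62.8% (SFN) to 72.0% (YWHAH) GC, and promoters of like GC content were not compared. With 6 promoters, 0 cannot be told apart from shares of 6.34% and 11.9%. These matches describe the letters in the windows and not binding.

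The genes lie on 7 different chromosomes of GRCh38, as placed by GENCODE release 29. YWHAB (ENSG00000166913) spans chr20:44885676-44908532 (plus strand), and YWHAE (ENSG00000108953) spans chr17:1344272-1400378 (minus strand). YWHAG (ENSG00000170027) spans chr7:76326794-76359031 (minus strand), and YWHAH (ENSG00000128245) spans chr22:31944461-31957603 (plus strand). YWHAQ (ENSG00000134308) spans chr2:9583972-9631014 (minus strand), and SFN (ENSG00000175793) spans chr1:26863138-26864457 (plus strand). Since the GENCODE starts of YWHAH, YWHAQ, YWHAB and YWHAE lie upstream of those in RefSeq, part of each window shown above is inside the GENCODE gene.

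YWHAZ (ENSG00000164924) spans chr8:100916525-100953388 (minus strand). It is widely expressed and often serves as a reference gene in quantitative PCR. YWHAZ was at 71.7, 82.7 and 81.4 FPKM in siNC replicates 1 to 3 and at 46.0, 63.8 and 60.4 FPKM in siPrp19 replicates 1 to 3. Every siPrp19 sample lay below every siNC sample, and the means were 78.6 ± 6.02 and 56.7 ± 9.49 FPKM (SD, n = 3), or 72.2% of siNC. The low value of siPrp19 replicate 1 widened the spread of its group, but siNC replicate 1 was also the lowest of its own group. Within same-numbered pairs siPrp19 stood at 64.1%, 77.2% and 74.2% of siNC, a log2 difference of −0.64, −0.37 and −0.43. The mean log2 difference in limma was −0.48 with an SE of 0.16, or 0.06 with the replicate number as a block. This was the contrast that selected the family, and the mean pair difference of YWHAZ stood at percentile 3.11 of the 14462 genes tested. For these genes the 5th percentile was −0.36, the median −0.0040 and the 95th percentile 0.34. In bulk RNA, fewer cells with a transcript and less of it per cell cannot be told apart.

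**Figure D1:**
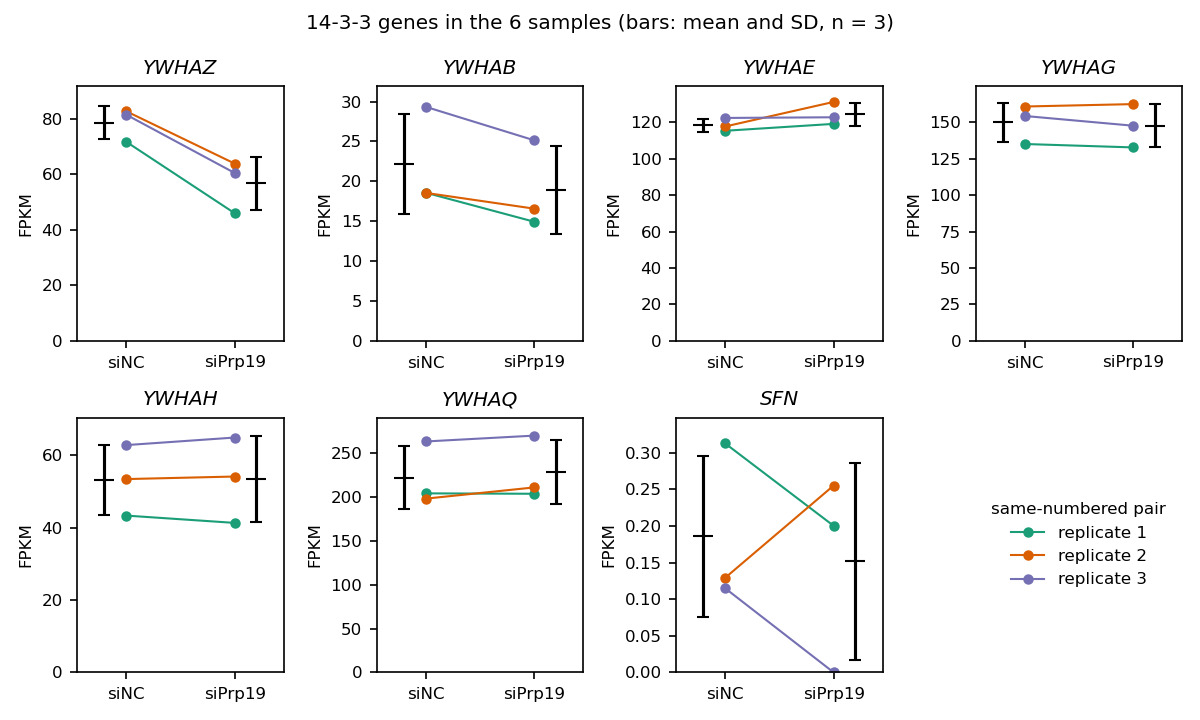
The FPKM of each of the 7 genes (vertical axes, each from 0) is plotted for siNC and siPrp19, with a line joining samples of the same replicate number and black bars for the mean and SD of 3 samples. YWHAZ and YWHAB slope down in all 3 pairs, YWHAE, YWHAG, YWHAH and YWHAQ run nearly level, and SFN stays under 1 FPKM.

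YWHAB, the beta isoform and the closest relative of zeta, was lower with siPrp19 in 3 of 3 pairs, but the groups overlapped. It was at 18.6, 18.6 and 29.3 FPKM in siNC replicates 1 to 3 and at 14.9, 16.6 and 25.1 FPKM in the siPrp19 replicates. In both groups replicate 3 stood well above the others, so siPrp19 replicate 3 exceeded siNC replicates 1 and 2. The means were 22.2 ± 6.22 and 18.9 ± 5.48 FPKM (SD, n = 3), or 85.2% of siNC, and the pairs stood at 80.4%, 89.3% and 85.7%. A decrease in 3 of 3 pairs was seen in 21.3% of all genes tested. In limma the log2 difference was −0.23 (SE 0.26, 95% interval −0.86 to 0.40, adjusted p = 0.9999). When the replicate number was added as a block, the SE was 0.05 and the interval −0.37 to −0.10, and the adjusted p of limma was 0.211. With the same block and limma's voom weights on the recovered reads, which ranged from 2592 to 4948 for YWHAB, the difference was −0.23 (SE 0.05, adjusted p = 0.00552). That fit called 4.64% of 13602 genes lower and 2.93% higher with siPrp19. Without pair 1 the voom fit gave a difference of −0.20 (SE 0.08) and an adjusted p of 0.185, on 4 samples. Neither limma fit on FPKM called any of the 14462 genes at a false discovery rate (FDR) under 0.05, a background of 0%, while 225 genes had an unadjusted p under 0.05 without the block and 2265 with it.

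None of the other 4 expressed members differed between the groups beyond the spread between replicates. YWHAE, whose loss with its neighbours on chromosome 17 underlies Miller-Dieker syndrome, was at 115.4, 117.7 and 122.4 FPKM in the siNC replicates and at 119.2, 131.2 and 122.8 FPKM in the siPrp19 replicates. It was higher with siPrp19 in 3 of 3 pairs, as were 19.2% of all genes tested, and by far the most in pair 2, at 111.5% of siNC. The groups overlapped, with means of 118.5 ± 3.59 and 124.4 ± 6.19 FPKM (SD, n = 3) and a log2 difference of 0.07 (SE 0.11, 95% interval −0.20 to 0.34, limma adjusted p = 0.9999). YWHAG, a gene of developmental epilepsy when mutated, was at 135.2, 160.9 and 154.4 FPKM in the siNC replicates and at 132.8, 162.5 and 147.7 FPKM in the siPrp19 replicates. Here the order of the replicate numbers was the same in both groups, and the means of 150.1 ± 13.4 and 147.7 ± 14.9 FPKM (SD, n = 3) put siPrp19 at 98.4% of siNC, a log2 difference of −0.02 (SE 0.14, 95% interval −0.36 to 0.31).

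YWHAH was at 43.3, 53.4 and 62.8 FPKM in the siNC replicates and at 41.3, 54.1 and 64.9 FPKM in the siPrp19 replicates. Replicate 1 was the lowest and replicate 3 the highest in both groups, and the means of 53.2 ± 9.74 and 53.5 ± 11.8 FPKM (SD, n = 3) gave 100.5% of siNC. Its log2 difference was −0.00094 with a 95% interval of −0.51 to 0.51, which the block narrowed to −0.12 to 0.12. YWHAQ, the theta isoform, also called tau and known from T cells, was at 204.2, 198.2 and 263.4 FPKM in the siNC replicates and at 203.8, 211.0 and 270.1 FPKM in the siPrp19 replicates. Replicate 3 was again high in both groups, with means of 221.9 ± 36.0 and 228.3 ± 36.4 FPKM (SD, n = 3), or 102.9% of siNC. Its log2 difference was 0.04 (95% interval −0.40 to 0.48), and −0.06 to 0.14 with the block. With the block the adjusted p of limma was 0.525 for YWHAE, 0.792 for YWHAG, 0.992 for YWHAH and 0.656 for YWHAQ, and the intervals of YWHAE (−0.05 to 0.19) and YWHAG (−0.13 to 0.08) also included 0.

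**Figure D2:**
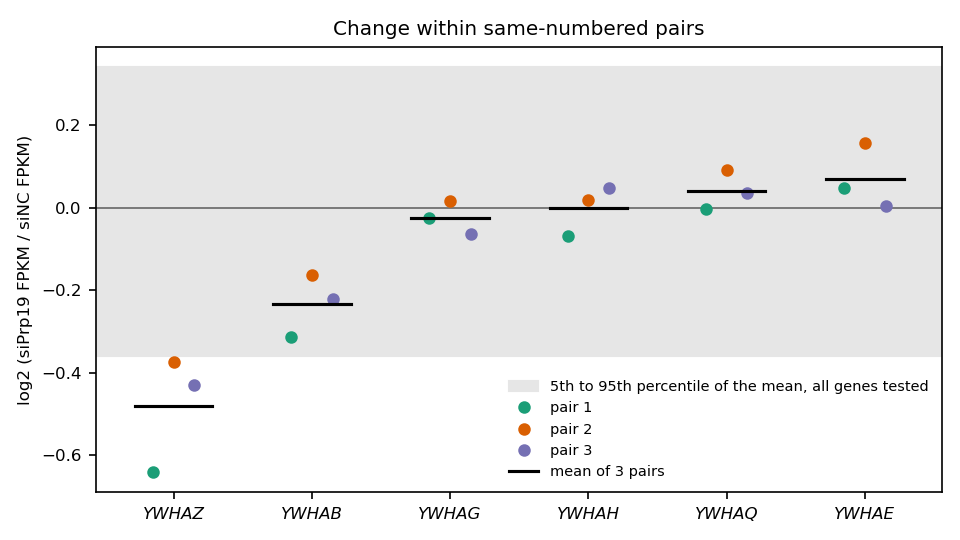
The log2 ratio of siPrp19 to siNC FPKM (vertical axis) is plotted for each of the 3 same-numbered pairs and each of the 6 expressed members, with a black line for the mean of the pairs and a grey band from the 5th to the 95th percentile of that mean over all 14462 genes tested. The mean of YWHAZ (−0.48) lies under the band, that of YWHAB (−0.23) inside it, and those of the other 4 members between −0.02 and 0.07.

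SFN, the sigma isoform of epithelial cells and a target of p53 in G2 arrest, was close to absent. It was at 0.313, 0.129 and 0.115 FPKM in the siNC replicates and at 0.200, 0.255 and 0 FPKM in the siPrp19 replicates, which corresponds to 9, 3 and 3 reads against 6, 7 and 0 reads. The groups overlapped and the gene did not pass the filter of a mean of 1 FPKM, so a difference was not detectable at this depth. Of 6 epithelial and keratinocyte markers only EPCAM reached 1 FPKM, with a mean of 1.86 FPKM, and KRT5 was listed at 0 in all 6 samples.

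The 411 genes with every siPrp19 sample below every siNC sample were 2.84% of those tested, and the 400 with every siPrp19 sample above were 2.77%. In the family YWHAZ met the first condition, but its siPrp19 values chose the family, so this is a description. No other member met it, and 0 of the 6 expressed members met the second. The summed level of the family was 588.7, 631.6 and 714.0 FPKM in the siNC replicates and 558.2, 639.6 and 691.1 FPKM in the siPrp19 replicates. The sums overlapped, with means of 644.8 ± 63.7 and 629.6 ± 67.0 FPKM (SD, n = 3), and siPrp19 stood at 94.8%, 101.3% and 96.8% of siNC within the pairs. Without YWHAZ the sum was 566.2 ± 59.6 FPKM with siNC and 572.9 ± 59.3 FPKM with siPrp19, or 101.2% of siNC.

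The share of YWHAZ in the family sum was 12.2%, 13.1% and 11.4% in the siNC replicates and 8.23%, 9.98% and 8.75% in the siPrp19 replicates, with no overlap between the groups. The share of YWHAQ, the largest, was 34.7%, 31.4% and 36.9% with siNC and 36.5%, 33.0% and 39.1% with siPrp19, higher in 3 of 3 pairs while the groups overlapped. The shares of YWHAE (18.5 ± 1.24% against 19.9 ± 1.87%, SD, n = 3) and YWHAH (8.21% against 8.42% on average) were also higher in 3 of 3 pairs. Shares of 1 sum are not independent of each other, and a smaller part for YWHAZ leaves more for the rest, so these shares were not tested.

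**Figure D3:**
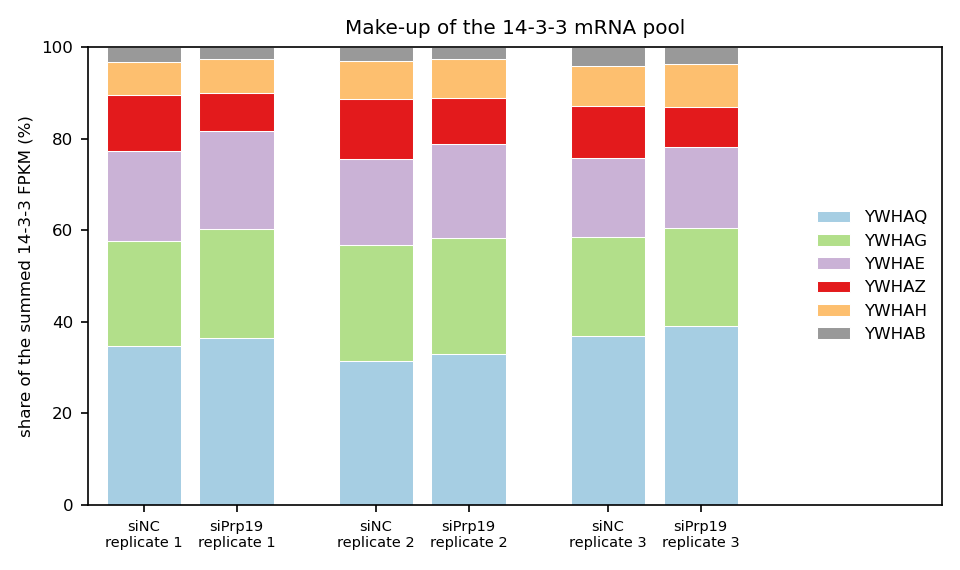
Each bar divides the summed 14-3-3 FPKM of 1 sample into the shares of the 6 expressed members (vertical axis, percent), with siNC and siPrp19 samples of the same replicate number side by side. The red YWHAZ segment is thinner with siPrp19 in every pair, and YWHAQ is the largest segment in all 6 bars.

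The order of the members by level was a property that had not chosen the family, and levels were compared between genes on the FPKM scale, which is per kilobase of the gene's combined exons. In the siNC samples the order was YWHAQ, YWHAG, YWHAE, YWHAZ, YWHAH, YWHAB and SFN. YWHAQ ranked 115th of the 14462 genes by mean level, and YWHAB, the lowest of the 6 expressed members, ranked 2214th. YWHAQ exceeded YWHAG, YWHAG exceeded YWHAE and YWHAH exceeded YWHAB in 6 of 6 samples, by a mean log2 difference of 0.59, 0.29 and 1.40. The exact two-sided sign-flip p over the 6 samples was 0.03125 for each, the smallest that 6 samples allow. Adjusted over 5 neighbouring pairs, those with YWHAZ included, it was 0.0391 (exact test). This test takes the 6 samples as independent, while samples of the same replicate number resembled each other. With the 3 replicate numbers as the units, or with siNC alone, the exact p was 0.25, the smallest that 3 units allow, so the order is a description. The place of YWHAZ is given in the siNC samples only, since its siPrp19 values chose the family. There YWHAE exceeded YWHAZ by 0.59 ± 0.09 and YWHAZ exceeded YWHAH by 0.58 ± 0.18 on the log2 scale (SD, n = 3), in 3 of 3 samples each.

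The order of YWHAZ depended on the length by which its reads were divided. The combined exons of its 23 annotated transcripts span 8555 bases, against 2713 bases for YWHAQ and 3750 for the single transcript of YWHAG. Per kilobase of the longest transcript, which is 5248 bases for YWHAZ, the siNC means were 271.7 for YWHAQ, 206.2 for YWHAE, 150.1 for YWHAG, 128.1 for YWHAZ, 69.4 for YWHAH and 30.0 for YWHAB, on the scale of FPKM. YWHAE and YWHAG changed places. Per kilobase of coding length, YWHAQ (819.2) and YWHAZ (812.2) were level and followed by YWHAG (759.8), YWHAE (586.8), YWHAB (208.8) and YWHAH (140.2). The reads divided were still those of all exons, untranslated parts included. The coding length was 828 bases for YWHAZ and 735 for YWHAQ, so this scale raises genes with long untranslated parts and is not a level of coding sequence. On this scale YWHAQ exceeded YWHAZ in 2 of 3 siNC samples, by a mean of 0.0033 ± 0.22 on the log2 scale, and YWHAZ exceeded YWHAG in 3 of 3, by 0.10 ± 0.02 (SD, n = 3). These lengths differ between genes and not between samples, so they leave the siPrp19 to siNC ratios as they are.

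**Figure D4:**
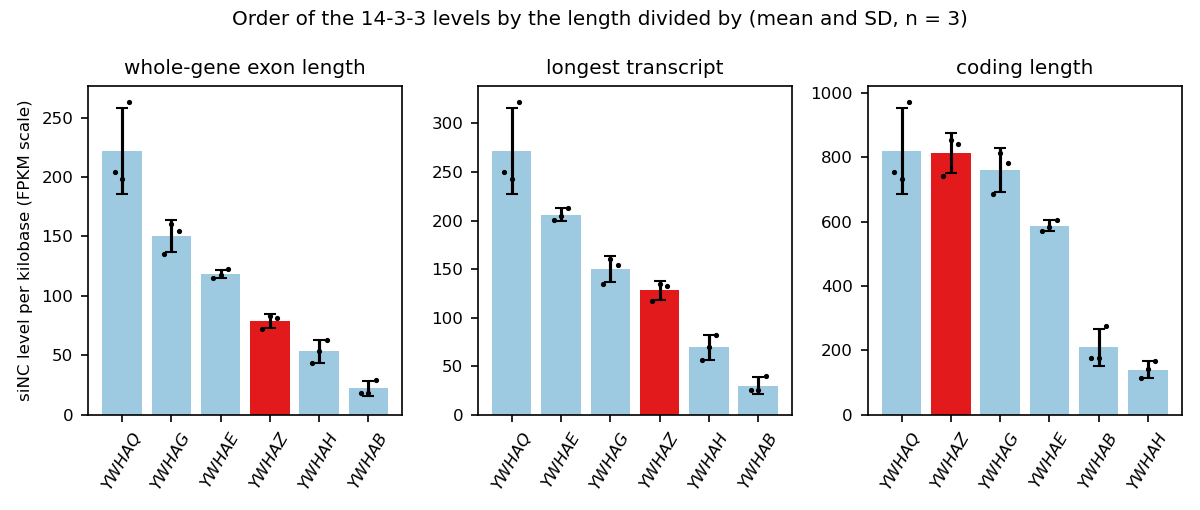
Mean level in the 3 siNC samples (bars, with SD and the single samples as points, vertical axes from 0 on the FPKM scale) is plotted for the 6 expressed members after division by the combined exon length, the length of the longest transcript or the coding length. The reads divided are those of all exons in each case. YWHAZ, in red, stands below YWHAQ, YWHAG and YWHAE by exon length and by longest transcript, and beside YWHAQ (812.2 and 819.2) by coding length.

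The samples with the same replicate number resembled each other, and these differences between replicate numbers were independent of the siPrp19 contrast. They were tested with limma's F test over all genes, which called 49.6% of the 14462 genes, and 5 of the 6 expressed members. YWHAB had means of 16.8, 17.6 and 27.2 FPKM over both groups in replicates 1, 2 and 3 (adjusted p = 0.00378). YWHAH had 42.3, 53.8 and 63.9 FPKM (adjusted p = 0.00470), and YWHAQ 204.0, 204.6 and 266.8 FPKM (adjusted p = 0.00650). In these 3 genes replicate 3 was the highest, by 0.70, 0.59 and 0.39 over replicate 1 on the log2 scale. YWHAG, with 134.0, 161.7 and 151.0 FPKM (adjusted p = 0.0207), and YWHAZ, with 58.8, 73.3 and 70.9 FPKM (adjusted p = 0.0367), were instead lowest in replicate 1 and highest in replicate 2. The calls of YWHAG and YWHAZ did not hold after scaling to TPM, in which the values of every sample sum to the same total, at an adjusted p of 0.0915 and 0.0702.

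YWHAE stood apart as the steadiest member, with 117.3, 124.5 and 122.6 FPKM in replicates 1, 2 and 3 (limma F test, adjusted p = 0.440). Its span between the highest and lowest replicate number was 0.08 on the log2 scale, at percentile 2.77 of the genes tested, whose median span was 0.46. The spans of the other members were 0.70 for YWHAB (percentile 73.6), 0.59 for YWHAH (64.8), 0.39 for YWHAQ (41.2), 0.34 for YWHAZ (34.6) and 0.27 for YWHAG (24.9). After scaling to TPM the span of YWHAE was 0.02, and after quantile normalization it was 0.20, in both cases still the smallest of the 6 members. Quantile normalization also moved the span of YWHAQ to 0.75.

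**Figure D5:**
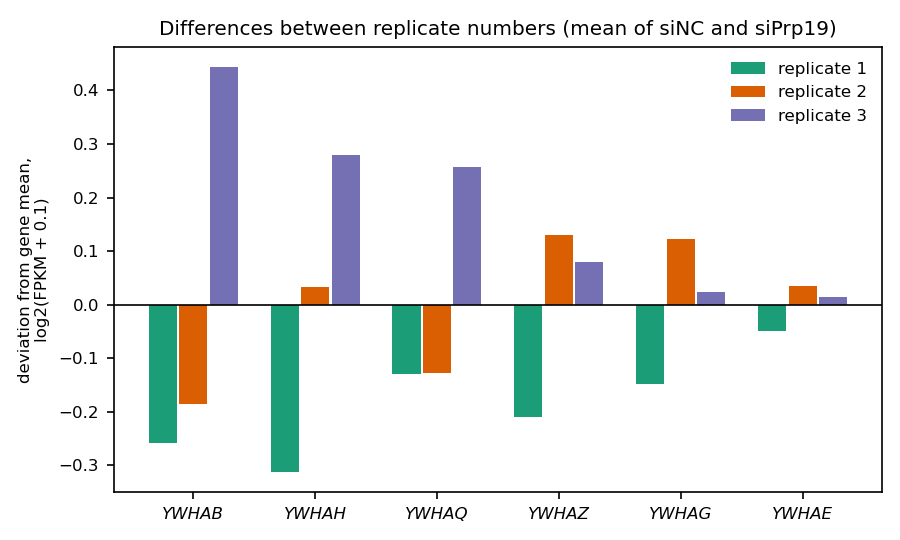
The deviation of each replicate number from the mean of the gene (vertical axis, log2(FPKM + 0.1), siNC and siPrp19 samples averaged) is plotted for the 6 expressed members. Replicate 3 is the highest in YWHAB, YWHAH and YWHAQ, replicate 2 in YWHAZ, YWHAG and YWHAE, and the bars of YWHAE are the shortest.

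Across the 6 samples the log2 levels of YWHAB and YWHAQ had a Pearson r of 0.89 (Spearman rho 0.657), those of YWHAB and YWHAH 0.81 (rho 0.714), and those of YWHAH and YWHAQ 0.81 (rho 0.829). Such values are common in these samples, since the r of each pair stood at percentile 84.5 to 93.1 of the r of the same gene with all genes tested. The r with YWHAZ was 0.59 for YWHAG, 0.53 for YWHAB, 0.45 for YWHAH, 0.12 for YWHAQ and −0.13 for YWHAE. The genes most like YWHAZ by this measure, of all 14462, were TOPBP1 (0.997), PACSIN2 (0.995), PTP4A2 (0.989), ACSL3 (0.988) and VGLL4 (0.988). These values describe 6 samples that share libraries and replicate numbers, and they include the siPrp19 contrast that chose YWHAZ.

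Reads of related sequences could touch these levels. The files listed 20 pseudogenes of the family, of which 12 were at 0 in all 6 samples and 2 reached a mean of 1 FPKM. YWHAZP3 on chromosome 10 had 29, 15 and 32 reads in the siNC replicates and 10, 15 and 16 in the siPrp19 replicates, and YWHAZP4 on chromosome 6 had 25, 10 and 32 reads against 29, 12 and 31. The pseudogenes of YWHAZ summed to between 1.99 and 4.62 FPKM per sample, while YWHAZ itself was at 46.0 FPKM or more. FPKM divides by length, and the exons of YWHAZP3 and YWHAZP4 span 738 and 708 bases, against 8555 for YWHAZ. In reads, YWHAZ ranged from 8933 (siPrp19 replicate 1) to 13782 (siNC replicate 3), so the pseudogenes weigh less in reads than in FPKM. How the counting divided reads between YWHAZ and its pseudogenes is not given in the sources used here, and the level of YWHAZ is uncertain to that extent. YWHAH shares 22 exon bases with C22orf24 on the opposite strand, which was at 0.276 FPKM at most, and 105 exon bases with Z82190.2 on the same strand. AC032044.2 and the RNA gene RF00019 overlap YWHAE and YWHAQ on the opposite strand but share 0 exon bases with them.

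The partners and regulators of 14-3-3 proteins were described in 9 lists with 98 genes, and 85 of these passed the filter of 1 FPKM. Neither limma fit on FPKM called any of the 85, and voom with the block called 6 lower and 2 higher of the 77 it could test, beside 4.64% lower and 2.93% higher of all genes in that fit. The median log2 difference of the 85 genes was −0.02, beside −0.0040 over all genes tested, and 26 were lower and 17 higher in 3 of 3 pairs, beside 21.3% and 19.2% of all genes tested. The voom calls in these lists numbered 1 without pair 1, 3 without pair 2 and 6 without pair 3.

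The list of Hippo kinases with YAP and TAZ had the lowest median, −0.23 over 7 genes tested of 9, and 6 of the 7 were lower in 3 of 3 pairs, beside 21.3% of all genes tested. Voom with the block called 4 of the 7 lower, beside 4.64% of all genes in that fit. The list was drawn up with the decrease of YAP1 in these samples known, so its count is not independent evidence of a direction. YAP1, the transcription cofactor that 14-3-3 proteins hold in the cytoplasm, was at 1.20, 1.95 and 1.61 FPKM in the siNC replicates and at 0.524, 1.18 and 0.743 FPKM in the siPrp19 replicates, or 51.3% of siNC (voom with the block, adjusted p = 5.73e-05). WWTR1, the gene of its paralog TAZ, averaged 1.84 ± 0.0185 FPKM with siNC and 1.41 ± 0.117 FPKM with siPrp19 (SD, n = 3), or 76.9% (voom with the block, adjusted p = 0.0239). MOB1A and MOB1B, the cofactors that switch on the LATS kinases, stood at 81.8% and 85.0% of siNC with adjusted p = 0.00218 and 0.0214 in the same fit. The siPrp19 samples lay under the siNC samples for YAP1, WWTR1 and MOB1A and overlapped for MOB1B. For all 4 genes limma with the block on FPKM gave an adjusted p between 0.211 and 0.314.

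In the lists of client proteins, voom with the block called 3 genes, beside 4.64% lower and 2.93% higher of all genes in that fit. WEE1, the kinase that delays entry into mitosis and 1 of 7 cell cycle clients in that fit, was lower at 87.8% of siNC (adjusted p = 0.0478). IRS2, an adaptor of the insulin receptor and 1 of 6 insulin, mTOR and metabolic clients in that fit, was lower at 86.0% (adjusted p = 0.0323). KLC2, a light chain of kinesin and 1 of 13 cytoskeletal and neuronal clients in that fit, was higher at 120.2% (adjusted p = 0.00936). The groups overlapped for all 3 genes, and limma with the block on FPKM gave them an adjusted p of 0.231, 0.308 and 0.217. The fit called 0 of 7 RAF and MAP kinase clients, 0 of 6 apoptosis and FOXO clients and 0 of 8 shuttling transcription regulators. The median differences of these lists, over the 9, 6 and 8 genes with a mean of 1 FPKM or more, were −0.08, −0.02 and 0.03. The most highly expressed of these were MAP3K1 and ARAF (90.6% and 98.9% of siNC), ABL1 and FOXO3 (104.7% and 92.5%) and the regulators HDAC5 and CRTC2 (108.4% and 104.3%).

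Binding to 14-3-3 proteins depends on kinases that phosphorylate the client site and phosphatases that clear it. Of the kinases, 15 passed the filter of 1 FPKM, with a median difference of −0.02, and voom with the block called 0 of the 14 it tested. PIM1, the kinase of this list with the highest level, stood at 104.5% of siNC. Among 9 phosphatase genes the median was −0.03. Voom with the block called 1 of them, beside 4.64% lower and 2.93% higher of all genes in that fit. This was PPP1CC, a catalytic subunit of protein phosphatase 1, higher at 113.5% of siNC with overlapping groups. Its adjusted p was 0.0317 in voom with the block and 0.256 in limma with the block on FPKM.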

How the data were processed

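RNA-seq of 6 SK-N-BE(2) samples was used, 3 with siNC and 3 with siPrp19, grouped by their labels. The authors deposited 1 FPKM table per sample. The submitters' processing notes name HISAT2 2.0.5, featureCounts 1.5.0-p3 and hg38. The annotation release and strand setting are not given in the sources used here. The authors' own test used DESeq2, and the study reports significantly regulated genes at its own thresholds of fold change and FDR.

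FPKM times GENCODE 29 exon length gave whole reads (within 0.05 read) in all 6 samples for 56487 of 58039 matched genes, or 97.3%, of which 20518 were at 0 throughout. The median-of-ratios factor was the same, 1.007362, in all 6 samples, so the deposited FPKM already stood on a common median-of-ratios scale. Genes averaging at least 1 FPKM were tested as log2(FPKM + 0.1) with limma 3.58.1 in R 4.3.3 (trend, Benjamini-Hochberg, threshold 0.05). The fit was also run on simulated reads, with planted changes larger than that of any expressed member. Planted changes as small as that of YWHAB were not tried. Alternatives included other filters, scalings and blocks, each sample left out, and voom on recovered reads, which with the block called 1030 genes. Fits with the block and 1 replicate number left out, and sign flips by replicate number, were chosen after seeing the data. Exact permutation tests used scipy 1.17.1 under Python 3.11.15, and tables and plots used numpy 2.4.6, pandas 2.3.3 and matplotlib 3.10.9.

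The members, lists and tests were chosen with earlier results of these data known. Named list genes were those at an FDR under 0.05 in any fit (at most 4 a list), or otherwise the 2 with the highest mean, of which 1 is not reported here. Replicate numbers were taken to pair the samples, since deviations from the group means correlated in every same-numbered pair (r = 0.381, 0.568 and 0.640). Separate cultures are not documented per sample in the labels, so p-values refer to the spread between these samples. limma and voom also pool this spread over genes. In voom with the block the pooled part outweighed the spread of the single gene, so its p-values rest mainly on other genes. The 6 expressed members had 2303 to 18179 reads per sample, and the part of counting error in the spread between samples was not tested.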

Additional observations from a re-analysis of the deposited data

How the results depend on the processing

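YWHAZ was lower with siPrp19 in all 22 alternatives, at −0.57 to −0.34 on the log2 scale. The ends come from leaving out 1 sample in turn, and −0.34 was reached without siPrp19 replicate 1. The siPrp19 contrast of YWHAZ chose the family, so its return in fits of the same samples is a description. In limma on all 6 samples, changing only the block, the filter or the eBayes settings cannot move the difference of any member. YWHAB was lower in all 22, between −0.46 and −0.01, and called only by voom with the replicate block, with all pairs or without pair 2 or 3 (adjusted p = 0.00533 to 0.0148). YWHAE was higher in all 22 and never called. Directions turned for members near 0, none of them called. YWHAG ranged from −0.0986 to 0.0493 with 1 sample left out and was 0.0027 in voom with the block without pair 3. YWHAQ ranged from −0.0860 to 0.17 with 1 sample left out. YWHAH ranged from −0.15 to 0.17 with 1 sample left out, and was 0.0025 in voom, 0.0024 in voom with the block, 0.0035 in TPM, above 0 after quantile normalization (0.0197), and without pair 1 0.0330 in limma and 0.0281 in voom with the block.

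Over all genes, calls of siPrp19 against siNC numbered 0 in limma, with or without the replicate block (225 and 2265 at an unadjusted p under 0.05). They numbered 1030 in voom with the block, 124 with the block and a mean of at least 5 FPKM, and 1 with robust eBayes without trend. Leaving out 1 sample gave 0 throughout, and leaving out 1 pair in voom with the block gave 278, 614 and 1261. Calls in the lists went from 0 to 8 in voom with the block and to 1 to 6 without 1 pair. Genes differing between replicate numbers went from 7175 to 4215 with no filter on low values, where 37676 genes were tested. There and after quantile normalization YWHAZ lost its call (adjusted p = 0.111 and 0.0756), as YWHAG did with no filter (0.0736). Of the neighbouring pairs in the order of levels, 4 were under 0.05, including YWHAE over YWHAZ, which used the values that chose the family. The count was 0 by coding length, with siNC alone and with sign flips by replicate number (added after seeing the data). With 3 units the exact p cannot fall under 0.25, so the counts with siNC alone and with these sign flips were fixed in advance. By coding length the lowest adjusted p was 0.0521 (exact test, 6 samples). The cause of the other changes between settings was not tested. SFN, with 9 reads at most, is limited by depth.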
